A study of Mus musculus with 12 samples.

Results

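The stromal matrix and niche factor genes are 40 mouse genes for collagens, matrix glycoproteins, matrix enzymes, niche ligands and contractile proteins that bone marrow stroma makes. They were chosen by symbol in the platform annotation and read array by array as a measure of RNA from the feeder layer in sorted blood cell progenitors. Ctgf and Cyr61 stand in that annotation under their newer symbols Ccn2 and Ccn1 (matched through RefSeq's synonyms), and Fbn1 had no probe set with its symbol, which left 39 of 40 members among 18193 genes measured. Each gene is represented by the probe set, among those annotated with a single symbol, with the highest mean log2(intensity + 16) over the 12 arrays.

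RNA came from pre-pro-B cells with the genotype Ebf1-/- (strain C57BL/6), progenitors that stop before the pro-B stage because the transcription factor EBF1 is missing. The cells carried a retrovirus with GFP alone (control, MigR1), with EBF1 and GFP, or with PAX5 and GFP, and GFP+ cells were sorted 2 days after infection. All groups shared the Ebf1-/- genotype and the culture, which was a layer of OP9 stromal cells in medium with 4% serum, SCF and Flt3L at 10 ng/ml each and IL-7 at 5 ng/ml. The labels give 3 control and 3 EBF1 arrays as set 1 and 3 control and 3 PAX5 arrays as set 2, with no age of the animals and no statement on separate cultures, so every p-value here reflects variation among the deposited arrays, part or all of it possibly technical.

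OP9 is a mouse bone marrow stromal line from animals with the op mutation in Csf1, the gene for macrophage colony-stimulating factor, and it lies under the progenitors as a supporting layer. Stroma of this kind deposits fibrillar and beaded-filament collagens with fibronectin and biglycan, and it displays CXCL12, which holds progenitors in the niche through CXCR4, and KIT ligand, which supports their survival. B-lineage progenitors receive these signals. In bulk RNA, fewer cells of a type and less RNA per cell cannot be told apart.

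Between the sets, same-numbered control arrays were nearly alike (their log2 differences had a robust SD of 0.039 to 0.094 over 12889 bright probe sets, where differently numbered controls had 0.287 to 0.374). The same held for PAX5 arrays 2 and 3 (0.077), so tests count 3 control, 3 EBF1 and 2 PAX5 samples. Blood-cell RNA was present on every array: the summed intensity of 15 pan-leukocyte genes, among them Coro1a, Arhgdib and Ptprc, lay between 44257 and 59772. These genes mark no stage, and the labelled pre-pro-B stage was not checked with them. EBF1 array 3 stands apart for the stromal genes: their summed intensity was 23516 there and 7751 to 10615 on the other 11 arrays. Much of that sum is the bright member Igfbp4, at 1561 to 4804. The other 11 arrays differed more for the 8 glycoprotein and proteoglycan members. These summed to between 173 in control array 2 of set 1 and 1657 in EBF1 array 1. The counts of fitted changes, and the fitted EBF1 changes of Bgn, Cxcl12, Fn1, Col1a2 and Sparc, are given with and without EBF1 array 3.

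Sequences just before the annotated start are printed for 4 members that had some of the largest differences between EBF1 array 3 and the other EBF1 arrays. RefSeq's start regions (build GRCm38.p6) list 26 of the 39 members. Capitals mark the TATA box TATAAA, the CCAAT box and the GC box GGGCGG on either strand in the 250 bases before the start, and overlapping matches were each counted.

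Cxcl12, chr6:117168285-117168534, + strand: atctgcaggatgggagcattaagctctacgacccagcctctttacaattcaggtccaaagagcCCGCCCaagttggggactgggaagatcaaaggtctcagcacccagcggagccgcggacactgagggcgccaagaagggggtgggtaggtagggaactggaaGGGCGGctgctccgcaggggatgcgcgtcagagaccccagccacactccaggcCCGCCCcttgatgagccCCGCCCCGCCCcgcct
Sparc, chr11:55420081-55420330, - strand: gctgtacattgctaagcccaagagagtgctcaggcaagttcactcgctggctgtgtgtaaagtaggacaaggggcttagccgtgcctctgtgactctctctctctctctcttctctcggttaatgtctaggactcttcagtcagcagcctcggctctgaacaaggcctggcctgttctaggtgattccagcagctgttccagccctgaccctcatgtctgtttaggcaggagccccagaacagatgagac
Col1a2, chr6:4505368-4505617, + strand: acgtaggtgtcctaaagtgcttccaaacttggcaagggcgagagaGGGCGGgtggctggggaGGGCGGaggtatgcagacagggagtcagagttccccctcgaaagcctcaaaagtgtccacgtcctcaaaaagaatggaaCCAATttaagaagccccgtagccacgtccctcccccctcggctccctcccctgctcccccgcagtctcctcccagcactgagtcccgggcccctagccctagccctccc
Bgn, chrX:73483351-73483600, + strand: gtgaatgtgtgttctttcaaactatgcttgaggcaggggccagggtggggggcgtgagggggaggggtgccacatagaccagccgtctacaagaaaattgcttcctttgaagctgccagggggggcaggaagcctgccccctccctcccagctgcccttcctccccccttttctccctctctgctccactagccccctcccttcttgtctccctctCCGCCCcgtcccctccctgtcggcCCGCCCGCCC

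The GC box stood 5 times before Cxcl12, 3 times before Bgn, 2 times before Col1a2 beside 1 CCAAT box, and the region of Sparc held none of the 3 motifs. Over the 26 members with a region, 15 held a GC box, 7 a CCAAT box and 8 a TATA box, and over all 32851 regions of the same length the shares were 32.7%, 33.8% and 12.4%. A member counted if any of its regions held the motif, while the shares are of single regions. The counts and shares are therefore not like for like. A match describes letters and is no binding site. Of the members, 4 pairs are neighbours in the gene table, namely Col3a1 with Col5a2, Col6a2 with Col6a1, Dcn with Lum, and Col4a1 with Col4a2.

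Of the 39 members, 29 had their highest value of set 1 in EBF1 array 3, where 16.5% of all genes had theirs. Against the mean of EBF1 arrays 1 and 2, on the log2(intensity + 16) scale, 11 members were over 4-fold higher in EBF1 array 3 (0.269% of all genes) and 0 were over 4-fold lower (0.104% of all genes). In falling order of fold these were Cxcl12, Sparc, Fn1, Col6a2, Col1a2, Bgn, Cald1, Col6a1, Col3a1, Col1a1 and Kitl, from 21.9-fold to 4.56-fold. Kitl at 4.56-fold lay just inside that limit and Serpinh1 at 3.99-fold just outside it. Past 2-fold were 21 members (1.39% of all genes).

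**Figure D1:**
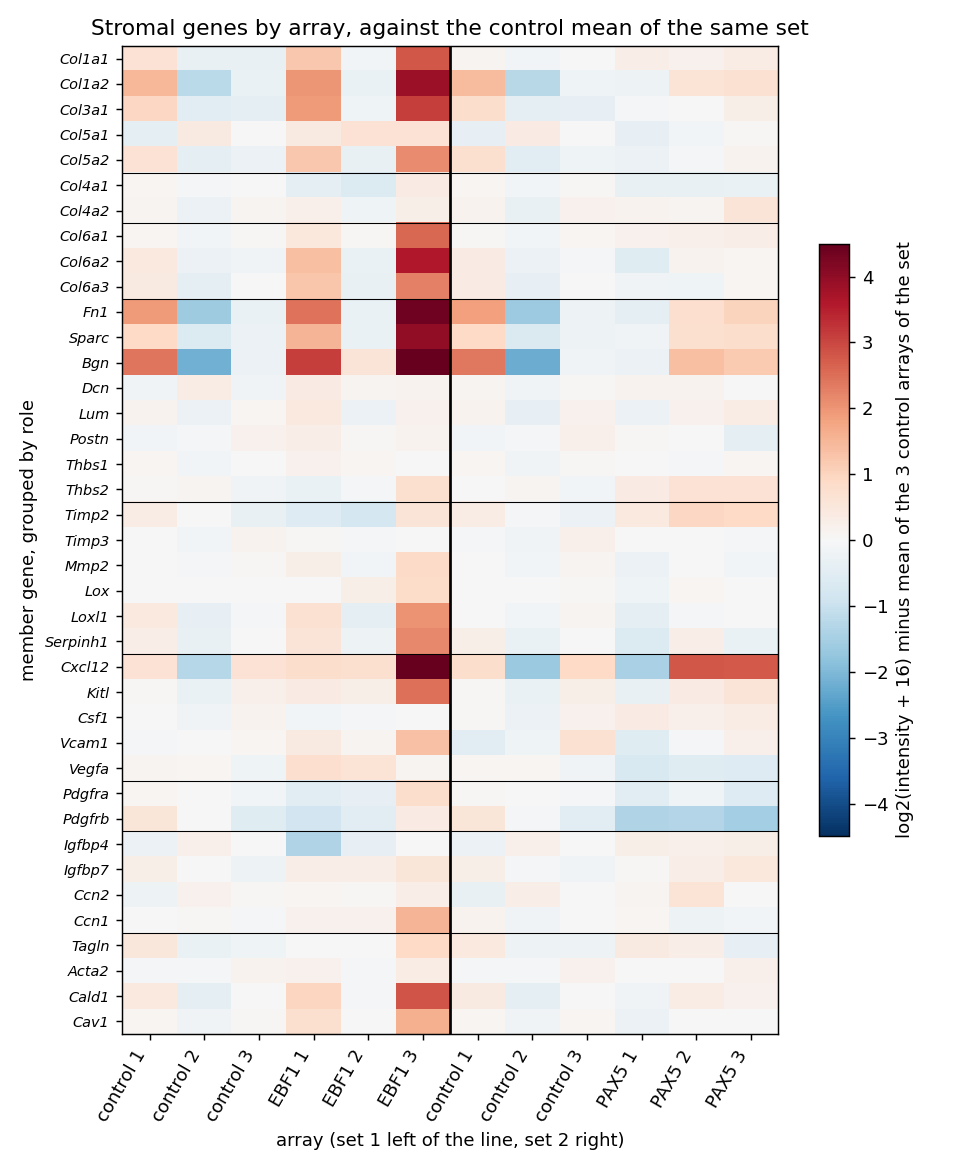
Log2(intensity + 16) of the 39 members (rows, grouped by role) on the 12 arrays (columns), minus the mean of the 3 control arrays of the same set; red is higher and blue lower than that mean. EBF1 array 3 holds the deepest red, with 18 members over 2-fold above the control mean, and control array 2 and PAX5 array 1 are blue for Cxcl12.

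Among the niche ligands, Cxcl12, the chemokine that retains progenitors in the marrow, had the widest range over the 12 arrays of any member, 7.03 in log2. It read 128, 21.3 and 129 in control arrays 1, 2 and 3 of set 1 and 143, 134 and 3366 in EBF1 arrays 1, 2 and 3. In set 2 it read 127, 9.94 and 139 in the control arrays and 14.1, 560 and 551 in the PAX5 arrays. EBF1 array 3 was far above every other array, EBF1 arrays 1 and 2 lay just above the controls of set 1, and PAX5 array 1 lay between the values of control array 2 in the 2 sets, while PAX5 arrays 2 and 3 were above all controls. Another Cxcl12 probe set read 1915 in EBF1 array 3 and 53.4 and 67.8 in EBF1 arrays 1 and 2. It read 43.4, 4.47 and 75.8 in the set 1 controls, so by it EBF1 arrays 1 and 2 lay inside the control range.

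Kitl, the ligand of the receptor KIT, read 42.1, 29.7 and 49.9 in the set 1 controls and 55.5, 50.4 and 298 in the EBF1 arrays. The arrays of set 2 gave 48.8, 34.0 and 58.4 in the controls and 33.4, 65.1 and 76.8 in the PAX5 arrays. As with Cxcl12, EBF1 array 3 was high, and control array 2 and PAX5 array 1 were low. Vcam1, the adhesion molecule that progenitors bind through integrin alpha 4, read 21.8, 22.7 and 26.6 in the set 1 controls and 36.5, 26.9 and 82.5 in the EBF1 arrays. Its set 2 values were 22.4, 32.0 and 71.7 in the controls and 21.8, 36.2 and 48.6 in the PAX5 arrays. EBF1 array 3 was again the highest of set 1, but control array 3 was the highest of set 2. A dimmer Vcam1 probe set read 27.9, 7.70 and 186 in the EBF1 arrays and was highest of set 2 in PAX5 array 2, at 22.9 against 3.98 in control array 3. The dimmest was highest of set 2 in control array 3, at only 6.95.

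Csf1, which carries the op mutation in OP9 cells, stayed within 0.60 in log2 over the 12 arrays by its brightest probe set. It read 187, 167 and 214 in the set 1 controls and 170, 179 and 193 in the EBF1 arrays. Set 2 gave 180, 142 and 196 in the controls and 224, 204 and 219 in the PAX5 arrays. By this probe set EBF1 array 3 lay inside the range of the controls, and the PAX5 arrays lay above their controls. A dimmer Csf1 probe set read 187 in EBF1 array 3 and 97.1 to 108 in the set 1 controls. Another read 77.6 in EBF1 array 3 and 33.5 to 59.0 in those controls. By the latter the PAX5 arrays, at 61.1 to 87.3, overlapped the set 2 controls, at 39.9 to 64.2.

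Vegfa, the endothelial growth factor, was measured well in every array and ran differently from the other ligands. It read 1138, 1128 and 912 in the set 1 controls and 1776, 1635 and 1159 in the EBF1 arrays. On set 2 arrays it read 1165, 1150 and 967 in the controls and 677, 750 and 731 in the PAX5 arrays. The PAX5 arrays lay below their controls with no overlap. The EBF1 arrays lay above theirs, the lowest of them, EBF1 array 3 at 1159, only just above the highest control at 1138, and it stood at 0.683 times the mean of EBF1 arrays 1 and 2.

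**Figure D2:**
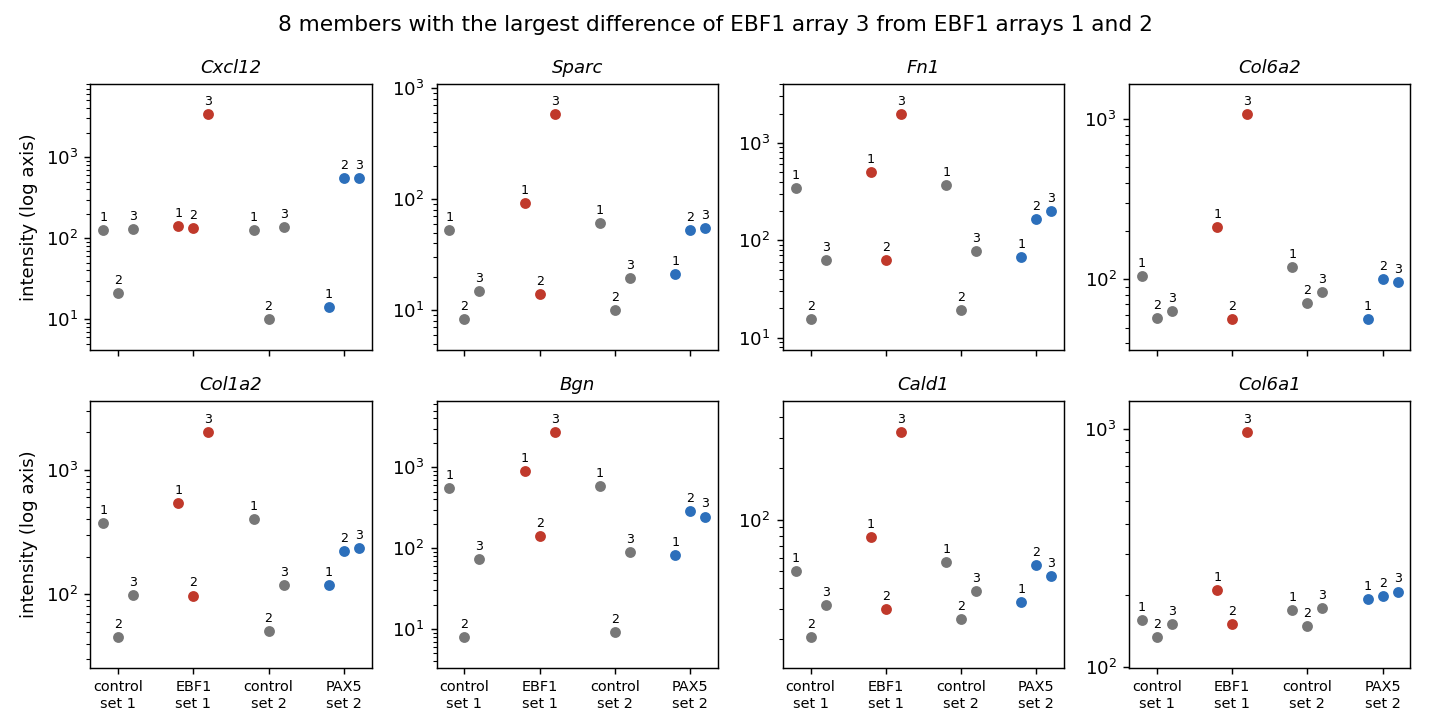
Intensity on a log axis of the 8 members with the largest log2 difference of EBF1 array 3 from EBF1 arrays 1 and 2, 1 point per array, numbered by array, in the 4 groups of 3 arrays. In each panel EBF1 array 3 is the highest point, for example 3366 for Cxcl12 and 2727 for Bgn, and in 7 of 8 panels control array 2 is the lowest of the set 1 arrays.

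The PDGF receptors mark mesenchymal cells, and by their brightest probe sets both had the same order of arrays within each group. Pdgfrb read 626, 413 and 285 in the set 1 controls and 226, 291 and 548 in the EBF1 arrays. In set 2 it read 672, 433 and 327 in the controls and 168, 174 and 149 in the PAX5 arrays. The EBF1 arrays overlapped the controls, and all PAX5 arrays lay below them. EBF1 array 3 was 2.07-fold over EBF1 arrays 1 and 2 for Pdgfrb. Pdgfra, by its brightest probe set, ran from 19.3 to 71.2 and was highest in EBF1 array 3, at 2.38-fold over EBF1 arrays 1 and 2. A further Pdgfra probe set read 71.1, 20.5 and 430 in the EBF1 arrays and 36.7, 17.2 and 14.9 in the set 1 controls, so the probe sets disagreed on the size of that difference.

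Of the 5 fibrillar collagens, Col1a2, a chain of type I collagen, had the highest fold. Col1a2 read 376, 45.4 and 99.3 in the set 1 controls and 542, 97.8 and 2018 in the EBF1 arrays. The arrays of set 2 gave 406, 50.3 and 119 in the controls and 118, 224 and 235 in the PAX5 arrays. Besides EBF1 array 3, array 1 of the control and of the EBF1 group was high, and control array 2 was the lowest. Col3a1, the chain of type III collagen, was 4.82-fold higher in EBF1 array 3 than in EBF1 arrays 1 and 2, Col1a1, the partner chain of Col1a2, 4.80-fold, and Col5a2 3.24-fold.

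Col5a1, which nucleates collagen fibrils with Col5a2, read 58.3, 114 and 81.0 in the set 1 controls and 112, 139 and 137 in the EBF1 arrays. Its set 2 values were 67.9, 124 and 94.5 in the controls and 67.6, 85.1 and 97.7 in the PAX5 arrays. By this probe set control array 2 was the highest control, the opposite of Col1a2. A dimmer Col5a1 probe set read 57.2, 16.6 and 270 in the EBF1 arrays and 24.3, 6.31 and 14.1 in the set 1 controls, with EBF1 array 3 highest and control array 2 lowest, as for Col1a2.

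The 3 chains of beaded-filament type VI collagen were all highest in EBF1 array 3. Col6a2 read 105, 57.6 and 63.8 in the set 1 controls and 213, 56.2 and 1071 in the EBF1 arrays. Set 2 gave 120, 71.5 and 83.1 in the controls and 56.6, 101 and 96.4 in the PAX5 arrays. Its neighbour Col6a1 varied less among the other arrays: it read 157, 134 and 152 in the set 1 controls and 211, 153 and 971 in the EBF1 arrays. The set 2 values of Col6a1 were 174, 149 and 177 in the controls and 193, 198 and 208 in the PAX5 arrays, which lay above their controls. Col6a3 was 3.56-fold higher in EBF1 array 3 than in EBF1 arrays 1 and 2. The basement membrane chains Col4a1 and Col4a2, a neighbouring pair, differed by only 1.88-fold and 1.18-fold.

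Among the glycoproteins and proteoglycans, Fn1, which encodes fibronectin, and Bgn, which encodes the small proteoglycan biglycan, were high and low in the same arrays as Col1a2. Fn1 read 344, 15.3 and 62.8 in the set 1 controls and 502, 62.5 and 1962 in the EBF1 arrays. On set 2 arrays it read 373, 19.4 and 77.8 in the controls and 67.2, 167 and 200 in the PAX5 arrays. EBF1 array 3 was the highest and control array 2 of set 1 the lowest of all 12 arrays. Bgn read 550, 7.98 and 73.1 in the set 1 controls and 899, 142 and 2727 in the EBF1 arrays. Its set 2 values were 592, 9.25 and 89.1 in the controls and 81.3, 287 and 246 in the PAX5 arrays. Control array 1 thus read higher for Bgn than EBF1 array 2, and the groups overlapped.

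Sparc, a matrix protein that binds collagen, read 52.8, 8.26 and 14.9 in the set 1 controls and 91.7, 14.1 and 579 in the EBF1 arrays. In set 2 it read 60.5, 10.1 and 19.6 in the controls and 21.2, 52.5 and 55.2 in the PAX5 arrays. The order of the arrays was again that of Fn1 in set 1. The other 5 of this role, the proteoglycans Dcn (decorin) and Lum (lumican), Postn, which encodes periostin, and the thrombospondins Thbs1 and Thbs2, were dim by their brightest probe sets, with all values between 3.21 and 112. EBF1 array 3 differed from EBF1 arrays 1 and 2 by 0.901-fold to 1.06-fold for Dcn, Lum, Postn and Thbs1 and by 1.86-fold for Thbs2.

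Among the genes of matrix processing and turnover, the collagen chaperone Serpinh1 and the crosslinking enzyme Loxl1 were 3.99-fold and 3.68-fold higher in EBF1 array 3. The related enzyme Lox was 1.63-fold higher by its brightest probe set, but a dimmer probe set read 71.2, 19.3 and 373 in the EBF1 arrays. The gelatinase Mmp2 was 1.73-fold higher by its brightest probe set, and a dimmer one read 98.4, 27.6 and 283 in the EBF1 arrays. Timp2, an inhibitor of matrix metalloproteinases, read 497, 388 and 310 in the set 1 controls, 255, 221 and 590 in the EBF1 arrays, 538, 402 and 355 in the set 2 controls and 584, 821 and 809 in the PAX5 arrays. For Timp2 the PAX5 arrays lay above their controls and above every EBF1 array but EBF1 array 3. Its relative Timp3 read 42.0, 38.3 and 50.5 in the set 1 controls and 46.2, 39.6 and 44.8 in the EBF1 arrays. The set 2 values of Timp3 were 47.9, 42.4 and 60.4 in the controls and 51.4, 50.1 and 45.2 in the PAX5 arrays, and the groups overlapped throughout.

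Igfbp4, a secreted binding protein of insulin-like growth factors, was bright in all 12 arrays. It read 3343, 4736 and 4079 in the set 1 controls and 1561, 3125 and 3984 in the EBF1 arrays. The arrays of set 2 gave 3331, 4722 and 4027 in the controls and 4762, 4673 and 4804 in the PAX5 arrays. Control array 2, where Bgn and Fn1 were lowest, was the highest of set 1 for Igfbp4, and EBF1 array 1 was the lowest. All 6 Igfbp4 probe sets had their set 1 maximum in control array 2. Igfbp7, a relative, was 1.18-fold higher in EBF1 array 3 than in EBF1 arrays 1 and 2. The matricellular genes Ccn1 and Ccn2 were dim, with values of 2.30 to 38.2 and 5.62 to 25.6 over the 12 arrays. Both were highest of set 1 in EBF1 array 3, by 2.49-fold for Ccn1 and 1.18-fold for Ccn2 over EBF1 arrays 1 and 2.

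Of the contractile and caveolar genes, Cald1, which encodes the actin-binding caldesmon, read 49.9, 20.6 and 31.5 in the set 1 controls and 79.4, 30.2 and 325 in the EBF1 arrays. Set 2 gave 56.8, 26.1 and 38.5 in the controls and 33.1, 54.0 and 46.9 in the PAX5 arrays. EBF1 array 3 was high and control array 2 low, as for Fn1. Acta2, smooth muscle actin, read 438, 445 and 523 in the set 1 controls and 543, 449 and 597 in the EBF1 arrays. The set 2 values of Acta2 were 420, 411 and 503 in the controls and 435, 446 and 528 in the PAX5 arrays, a range of 0.52 in log2 over all 12. Cav1, the caveolar coat protein, was 2.35-fold higher and Tagln, which encodes transgelin, 1.86-fold higher in EBF1 array 3, Tagln at values under 32.

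**Figure D3:**
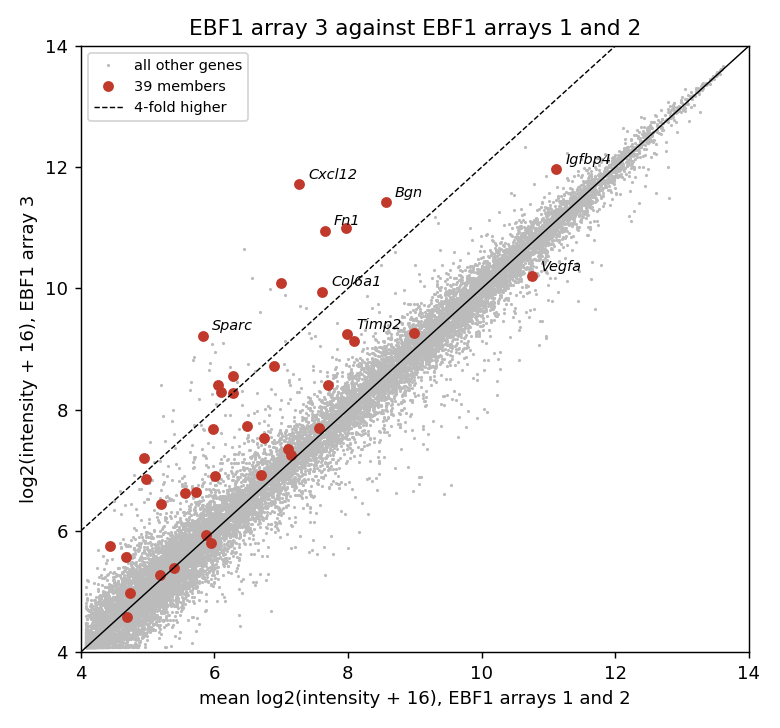
Log2(intensity + 16) in EBF1 array 3 (vertical) against the mean of EBF1 arrays 1 and 2 (horizontal), with the 39 members as red points and all other genes as grey points; the solid line marks equal values and the dashed line a 4-fold higher value. The 11 members above the dashed line include Cxcl12, Bgn, Fn1, Sparc and Col6a1, Igfbp4 and Timp2 lie between the lines, and Vegfa lies below equality.

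The arrays also differed for the members when EBF1 array 3 was set aside. Over the other 5 arrays of set 1, 27 of 39 members were highest in EBF1 array 1, where 21.1% of all genes were highest. EBF1 array 1 was over 2-fold above EBF1 array 2 for 11 members (0.803% of all genes), namely Sparc, Fn1, Col6a2, Col1a2, Bgn, Cald1, Col3a1, Col1a1, Loxl1, Col6a3 and Col5a2. Control array 1 of set 1 was over 2-fold above the mean of control arrays 2 and 3 for 6 members (0.506% of all genes), namely Sparc, Fn1, Col1a2, Bgn, Col3a1 and Col5a2, and over 2-fold below for 0 (0.247%). Control array 2 of set 1 was the lowest of set 1 for 20 members (15.1% of all genes) and over 2-fold below the other controls for Cxcl12, Fn1, Col1a2 and Bgn (0.495%).

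In set 2, 16 members were highest in control array 1 (19.7% of all genes) and 10 in PAX5 array 3 (12.4%). The lowest value of set 2 lay in control array 2 for 18 members (22.6% of all genes) and in PAX5 array 1 for 11 (21.0%). PAX5 array 1 was over 2-fold below the mean of PAX5 arrays 2 and 3 for Cxcl12, Fn1 and Bgn, 3 of 39 members (0.308% of all genes). The control arrays of set 2 were nearly alike to the same-numbered ones of set 1 and were not counted as independent samples. The labels do not say whether they are repeats.

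The differences between arrays did not keep 1 ratio over the members. For 22 members, those over 2-fold higher in EBF1 array 3 than in EBF1 array 2, the linear difference of EBF1 array 1 from EBF1 array 2 was set against that of EBF1 array 3 from EBF1 array 2. It came to 29.3% for Bgn, 23.1% for Col1a2, 23.1% for Fn1 and 42.8% for Col5a2, but to 7.14% for Col6a1, 9.23% for Timp2, 2.06% for Kitl and 0.26% for Cxcl12, with a median of 17.1%. The corresponding difference of control array 1 from control array 2 came to 21.0% for Bgn, 17.2% for Col1a2 and 17.3% for Fn1, 29.4% for Timp2, 2.86% for Col6a1, 5.0% for Kitl and 3.29% for Cxcl12. The difference of PAX5 arrays 2 and 3 from PAX5 array 1 came to 62.8% for Timp2, 16.7% for Cxcl12, 15.2% for Kitl, 7.16% for Bgn, 5.8% for Col1a2 and 1.28% for Col6a1. Bgn and Col1a2 thus read above Cxcl12 and Kitl in the first 2 of these shares and below them in the last.

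**Figure D4:**
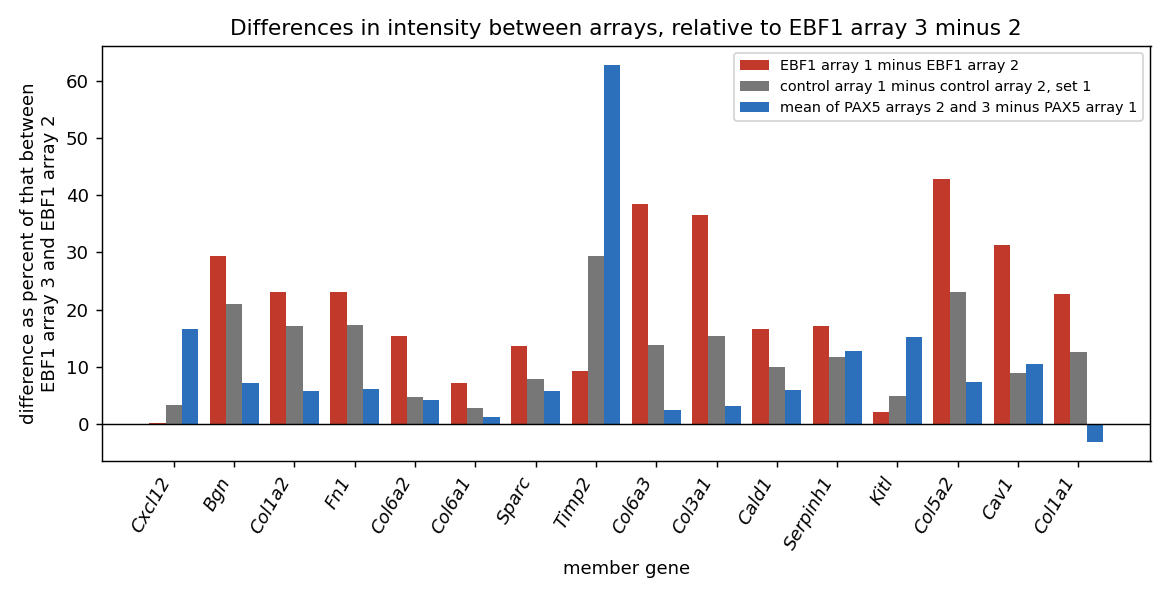
Differences in intensity between arrays as a percent of the difference of EBF1 array 3 from EBF1 array 2, for the 16 members where the latter was over 100; bars stand for EBF1 array 1 minus 2 (red), control array 1 minus 2 of set 1 (grey) and the mean of PAX5 arrays 2 and 3 minus PAX5 array 1 (blue). Red bars reach 42.8% for Col5a2 and 0.26% for Cxcl12, and blue bars 62.8% for Timp2 and 16.7% for Cxcl12.

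Across the 39 members, the log2 difference of control array 1 from control array 2 correlated with that of EBF1 array 3 from EBF1 array 2 at r = 0.80 (rho 0.79), beside r = 0.27 over all 18193 genes. The difference of EBF1 array 3 from EBF1 array 2 correlated with that of PAX5 arrays 2 and 3 from PAX5 array 1 at r = 0.61 (rho 0.58), beside 0.09 over all genes. The corresponding value for EBF1 array 1 minus 2 and the PAX5 difference was r = 0.27 (rho 0.46), beside -0.06 over all genes, and for control array 1 minus 2 and the PAX5 difference r = 0.55 (rho 0.50), beside -0.17. These correlations have no p: they are across genes, which are not independent replicates, and the members differ in level and dynamic range.

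Several members have more than 1 probe set, and the count depends on which is read. Of 100 probe sets of the 39 members, 72 were highest in EBF1 array 3 of set 1 and 25 were over 4-fold above EBF1 arrays 1 and 2. At least 1 probe set passed 4-fold for 16 members, and 11 members had one probe set over 4-fold and another under 2-fold. The scale also differed between sets: Col1a1 read 6.38 ± 9.32 (SD, n = 3) in the controls of set 1 and 88.1 ± 9.67 in those of set 2, and Dcn 5.95 ± 4.64 and 78.9 ± 9.81. On the log2(intensity + 16) scale these were the only members over 2-fold apart between the control sets. Of 18193 genes, 743 were over 2-fold higher and 405 lower in set 2. The added constant damps such offsets in dim genes. The linear control means of Ccn1 were 2.96 in set 1 and 16.6 in set 2, and those of Loxl1 13.6 and 39.0. Levels of Col1a1, Dcn, Ccn1 and Loxl1 can therefore be compared within a set only. The fit removed the offset between sets for every gene, so its changes of these genes are relative to the controls.

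EBF1 against control asks which transcripts the factor changes. By limma on log2(intensity + 16) with Benjamini-Hochberg adjustment, 40 of 18193 genes passed an adjusted p of 0.05 (0.22%) and 0 of 39 members did. The lowest adjusted p of a member was 0.318, for Vegfa, and 3 members, Vegfa, Col5a1 and Igfbp7, had an unadjusted p under 0.05, all higher with EBF1 (6.29% of all genes). With control and EBF1 samples of equal number paired as a replicate block, 10 genes and 0 members passed. Without EBF1 array 3, 406 genes and 0 members passed.

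The fitted change was above 0 for 33 of 39 members (53.1% of all genes) and above 1 in log2 for 13 (1.29% of all genes), with a member median of 0.50 beside 0.01 over all genes. Without EBF1 array 3 the change was above 0 for 30 members (52.4% of all genes) and above 1 for 2 (1.46%), Bgn and Fn1, and the member median was 0.20. The spread between EBF1 arrays was as large as these changes. Bgn stood at 210 ± 296 (SD, n = 3) in the controls and 1260 ± 1330 in EBF1 cells, which is 2.78 in log2 (SE 1.26, limma adjusted p = 0.45), or 1.83 without EBF1 array 3. Cxcl12 stood at 92.6 ± 61.8 and 1210 ± 1860, a change of 2.23 (SE 1.42, limma adjusted p = 0.60), or 0.75 without EBF1 array 3. Fn1 differed by 2.17 (SE 1.19), Col1a2 by 1.85 (SE 1.0) and Sparc by 1.74 (SE 0.93), and by 1.07, 0.84 and 0.61 without EBF1 array 3. Igfbp4 had the lowest fitted change, -0.57 (SE 0.31, limma adjusted p = 0.53).

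By brightest probe set, all EBF1 arrays lay above all set 1 controls for 6 members (7.67% of all genes) and below for 0 (6.76%). The 6 were Cxcl12, Kitl, Vcam1, Vegfa, Igfbp7 and Ccn1. The lowest EBF1 value and the highest control value lay close together for 5 of them: 134 and 129 for Cxcl12, 50.4 and 49.9 for Kitl, 26.9 and 26.6 for Vcam1, 1159 and 1138 for Vegfa, and 121 and 118 for Igfbp7. For the dim Ccn1 they were 5.70 and 3.74. Dimmer probe sets of these genes overlapped between the groups. The lowest EBF1 and highest control values were 53.4 and 75.8 for Cxcl12, 16.6 and 29.9 for Kitl and 7.70 and 12.3 for Vcam1. A dimmer Ccn1 probe set did not overlap, at 3.01 and 2.13.

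PAX5 against control called 159 genes (0.874%) and 0 of 39 members, with 2 members at an unadjusted p under 0.05, both lower with PAX5 (4.13% of all genes). These were Pdgfrb, at -1.39 in log2 (SE 0.38, limma adjusted p = 0.22), and Vegfa, with -0.61 (SE 0.19, limma adjusted p = 0.32). The member median was 0.02 beside -0.01 over all genes, and 22 members had a change above 0 (48.1% of all genes). Cxcl12 had a change of 0.66 (SE 1.58), which was -1.47 without PAX5 arrays 2 and 3 and 2.78 without PAX5 array 1. By brightest probe set, all PAX5 values of set 2 lay above all controls for Col1a1, Col6a1, Csf1, Timp2 and Thbs2, 5 members (9.34% of all genes). They lay below for Vegfa, Pdgfra, Pdgfrb and Col4a1, 4 members (8.95%).

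The EBF1 change minus the PAX5 change, tested in the same fit with shared control samples, passed for 353 genes (1.94%) and for 1 of 39 members. It was above 0 for 33 members (53.5% of all genes) and above 1 in log2 for 14 (1.45%), and at an unadjusted p under 0.05 it was positive for 5 members (8.79%) and negative for 3 (8.22%). Without EBF1 array 3 it was above 0 for 30 members (52.7%) and above 1 for 2 (1.68%). The member past the adjusted threshold was Vegfa, with a difference of 1.11 in log2 (SE 0.19, limma adjusted p = 0.029): its intensity was 1060 ± 128 (SD, n = 3) in the set 1 controls and 1520 ± 323 in EBF1 cells, and 1090 ± 110 in the set 2 controls and 719 ± 37.9 over the 3 PAX5 arrays, of which arrays 2 and 3 count as 1 sample. The call held without EBF1 array 3 (1.30, limma adjusted p = 0.0046) and ended without EBF1 array 1 (0.99, limma adjusted p = 0.082), EBF1 array 2 (1.05, limma adjusted p = 0.09), PAX5 array 1 (1.05, limma adjusted p = 0.34) or PAX5 arrays 2 and 3 (1.18, limma adjusted p = 0.11). A dimmer Vegfa probe set read 254, 246 and 261 in the set 1 controls and 324, 336 and 258 in the EBF1 arrays, and 277, 259 and 304 in the set 2 controls and 237, 250 and 257 in the PAX5 arrays. Timp2 differed by -0.94 (SE 0.38, limma adjusted p = 0.26), and without EBF1 array 3 by -1.36 (limma adjusted p = 0.024).

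**Figure D5:**
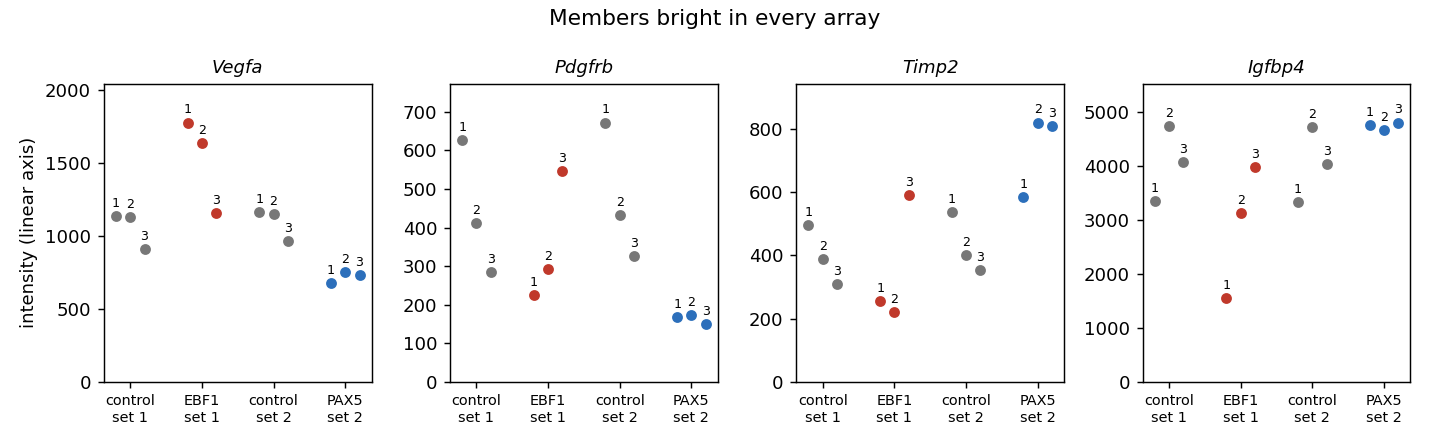
Intensity on a linear axis of Vegfa, Pdgfrb, Timp2 and Igfbp4, 1 point per array, numbered by array, in the 4 groups of 3 arrays. Vegfa lies at 1159 to 1776 with EBF1 and 677 to 750 with PAX5, Pdgfrb at 149 to 174 with PAX5, and EBF1 array 3 lies inside the control range for Pdgfrb and Igfbp4.

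Other genes of stroma were read from lists that hold no member. Of 71 further matrix and mesenchymal genes, 45 were highest (16.5% of all genes) in EBF1 array 3 of set 1 and 5 were over 4-fold above EBF1 arrays 1 and 2 (0.269% of all genes), among them Ogn, a matrix proteoglycan, at 451 against 55.5 and 21.8. Of 19 further ligands of stroma, 9 were highest there and 4 over 4-fold, among them Gas6, ligand of the receptor AXL, at 532 against 71.5 and 40.1, and Angpt1, a TEK ligand, at 435 against 64.2 and 16.6. Of 8 adipocyte genes, 6 were highest there and 2 over 4-fold, namely Lpl, lipoprotein lipase, at 1139 against 117 and 51.4, and Fabp4, a fatty acid carrier, at 937 against 149 and 92.2. OP9 cells are known to be able to turn into adipocytes. The summed intensity of the adipocyte list was 2364 in EBF1 array 3 and 207 to 395 on the other 11 arrays, with Pparg and Lep at or near 1 on at least 1 array. The part of these cells or of feeder RNA in the members' values was not tested.

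In the lists of other cell types, the highest value of set 1 lay in EBF1 array 3 for 2 of 13 macrophage, 3 of 10 endothelial, 3 of 8 epithelial and 0 of 15 leukocyte genes, beside 16.5% of all genes. Past 4-fold was 1 macrophage gene, Adgre1, the F4/80 antigen, and 0 of the other 3 lists, beside 0.269% of all genes. Adgre1 read 399 in EBF1 array 3, 55.9 and 62.7 in EBF1 arrays 1 and 2 and 341 to 597 in the set 1 controls. The summed intensity of the macrophage list was 1036 in EBF1 array 3, 649 and 726 in EBF1 arrays 1 and 2 and 929 to 1375 in the set 1 controls. Of 13 receptors through which progenitors read niche ligands, 1 was highest in EBF1 array 3. Of the 12 non-members with the largest excess of EBF1 array 3 over the higher of EBF1 arrays 1 and 2, Ddx4, a germ cell RNA helicase, and Adgre1 were not high against the controls: Ddx4 read 1599 in EBF1 array 3, 75.3 and 66.3 in EBF1 arrays 1 and 2 and 772 to 2028 in the set 1 controls. The other 10 were Lpl, Plpp3, Ogn, Gas6, Mgst1, Anxa2, Fabp4, Angpt1, Efemp1 and Gpx8, and each read higher in EBF1 array 3 than in any set 1 control.

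Some listed genes that are not members passed the test, beside 0.22% of all genes for EBF1, 0.874% for PAX5 and 1.94% for the difference. For EBF1 this was 1 of the 19 ligands. For PAX5 it was 1 of 71 matrix genes, 1 of 19 ligands, 2 of 13 receptors, 1 of 13 macrophage genes and 1 of 8 epithelial genes. Dlk1, a Notch-family ligand of stroma, rose with EBF1 by 2.45 in log2 (SE 0.29, limma adjusted p = 0.021), and it read 685, 979 and 389 in the EBF1 arrays and 94.4 to 126 in the set 1 controls, lowest of its group in EBF1 array 3. With PAX5, the ligand Tgfb3 rose by 2.49, the matrix protein Tgfbi by 2.30, the macrophage receptor Cd163 by 1.78, the receptor Tgfbr2 by 1.57, the splicing factor Esrp1 by 1.18 and the integrin Itga6 by 0.67, with limma adjusted p between 0.0022 and 0.038. The EBF1 change minus the PAX5 change passed for these 7 and also for S100a6 (2.44) and Col5a3 (0.95).

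The 3 brightest genes of each other list differed less between EBF1 array 3 and EBF1 arrays 1 and 2 than Col1a2 did, except for Lpl at 3.61 in log2. Col1a2, at 3.01, is among the highest members, and the member median was 1.05. Lpl, Fabp4, Adgre1 and Igf1 lay above the members Col3a1, Col1a1 and Kitl, which differed by 2.27, 2.26 and 2.19. In the matrix list Tpm2, P4ha1 and Thy1 differed by -0.36, -0.52 and 0.79. Among the ligands Tgfb1 and Pdgfa differed by -0.61 and -0.82, and Igf1 by 2.29, where the EBF1 arrays read 39.1, 55.5 and 292 and the set 1 controls 95.2 to 316. Among the receptors Itga4, Itga6 and Cd44 differed by 0.44, -0.02 and 0.30, and among the leukocyte genes Coro1a, Arhgdib and Ptprc by 0.17, 0.04 and -0.01. The macrophage genes Adgre1, Csf1r and Marco differed by 2.46, -0.18 and -0.77, the endothelial genes Pecam1, Plvap and Kdr by 0.60, 0.12 and 0.29, and the epithelial genes Cldn4, Krt8 and Cdh1 by -0.16, 0.49 and -0.85. Fabp4 and Retn, the other bright adipocyte genes, differed by 2.83 and 0.37. Adgre1 and Igf1 read lower in EBF1 arrays 1 and 2 than in every set 1 control, and in EBF1 array 3 they lay inside the range of those controls.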

How the data were processed

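Each deposited column holds the linear intensity of every probe set on 1 array; the authors' summary and normalization are not given in the sources used here. Per the labels, biotin-labelled cRNA was hybridised. Median intensity was 55.1 to 60.6 (set 1) and 65.3 to 68.9 (set 2). Precision is limited by how few arrays there are. Of 45037 probe sets, 34945 carried 1 symbol in the platform annotation, 932 several and 9160 none. The listed symbols Ctgf, Cyr61, Emr1, Ptrf, Wisp1, Wisp2 and Nov were matched through RefSeq's synonyms.

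Values were used as log2(intensity + 16) with no filter. The constant understates changes of dim genes. Limma 3.58.1 in R 4.3.3 (tables read with data.table, version 1.17.8) was fitted to all 18193 genes over 8 samples, with 5 residual and 3.53 prior degrees of freedom and Benjamini-Hochberg adjustment (threshold 0.05), after a test on simulated data. Control arrays of equal number were averaged after the offset between sets was removed, and PAX5 arrays 2 and 3 were averaged. Figures and counts used Python 3.11.15, pandas 2.3.3, numpy 2.4.6 and matplotlib 3.10.9.

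Deviations of control and EBF1 arrays of equal number correlated at 0.35, 0.61 and 0.39. These numbers, which are in the labels, were therefore paired in a replicate block, which was an alternative setting only. The main fit, which gave the SEs, p-values and calls unless another setting is named, held no pairing. The PAX5 group holds only 2 samples, and its numbers were likewise used only in the block settings.

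Members, lists and tests were chosen with earlier results of these data known. Every array's value is given for members past the test, the 8 with the largest difference of EBF1 array 3 from EBF1 arrays 1 and 2, the 4 brightest in controls, the 6 brightest not highest in EBF1 array 3 and 5 niche ligands. Non-members named are the 12 with the largest such excess and, per list, the 3 brightest and any past the test. Timp2 and the dimmer probe sets were added after their values were seen. Alternatives were other added constants, quantile normalization, the mean of all probe sets, a filter, 12 separate arrays, a replicate block, array weights and leaving out samples.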

Additional observations from a re-analysis of the deposited data

Results flagged for a closer look

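The change of Vegfa with EBF1 exceeded that with PAX5 by 1.11 in log2 (SE 0.19, limma adjusted p = 0.029, tested as a difference within 1 fit). It was picked out because the responses to the 2 factors differed by that test. A dimmer Vegfa probe set overlapped for EBF1, with 258 in EBF1 array 3 and 261 in control array 3 of set 1. Its PAX5 arrays lay just below the set 2 controls (highest 257, lowest control 259). By the brightest probe set, which the test used, all 3 EBF1 arrays lay above and all 3 PAX5 arrays below the controls of their set. The lowest EBF1 array read 1159 and the highest set 1 control 1138. PAX5 arrays 2 and 3 count as 1 sample, and so do same-numbered controls of the 2 sets, which were nearly alike. The log2 difference ranged from 0.77 to 1.30 over 16 alternatives, with limma adjusted p from 0.0046 to 0.34.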

How the results depend on the processing

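The counts of members past the test were 0 for EBF1 and 0 for PAX5 under all 17 alternatives run for each. For EBF1 against control, 40 genes passed; 10 passed with a constant of 64, 16 with a filter on mean log2 above 7, 201 with 12 separate arrays, 66 with array weights, and 10 to 406 on leaving out 1 sample (10, 13 and 13 without control 1, 2 or 3, 19 without EBF1 array 2, 406 without EBF1 array 3, 11 without either PAX5 sample). For PAX5, 159 passed, 357 with 12 separate arrays, and 28 to 176 on leaving out 1 sample (100, 97 and 81 without control 1, 2 or 3, 28 without PAX5 array 1, 92 without PAX5 arrays 2 and 3). For the difference, 353 passed, 156 with 12 separate arrays, 777 with array weights, and 55 to 575 on leaving out 1 sample (167, 154 and 575 without EBF1 array 1, 2 or 3, 55 without PAX5 array 1, 167 without PAX5 arrays 2 and 3), and the members past it numbered 1, 0 with a constant of 4 (Vegfa adjusted p = 0.052, limma), 0 with 12 arrays (limma adjusted p = 0.054) and 0 to 2 on leaving out 1 sample. With a replicate block, 10 genes passed for EBF1 and 251 for PAX5. For PAX5 that block paired all 3 PAX5 arrays with the set 2 controls, so the nearly alike PAX5 arrays 2 and 3 counted as separate samples. The difference was not run because that block fits the sets apart. Over all 8 samples, a block added after seeing the data, 45, 228 and 622 (difference) passed. The block changed no member's call. Members over 4-fold in EBF1 array 3 numbered 11, 14 with a constant of 4, and 7 both with a constant of 64 and with the mean of all probe sets. The member median with PAX5 was 0.02, and 0.23 with the filter, which left 13 members. The PAX5 change of Cxcl12 turned from 0.66 to -0.18 without control array 2 and to -1.47 without PAX5 arrays 2 and 3, and was 2.78 without PAX5 array 1. The cause of these shifts was not tested, beyond the smaller number of genes or samples in some. Counts over 5 arrays of set 1 without EBF1 array 3 were also chosen after seeing the data. Dim members (Lum, Postn, Tagln) have values near the added constant, which hides changes in them.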
